A study of Homo sapiens with 2 samples.

Results

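The CCT chaperonin genes were examined in RNA recovered by immunoprecipitation from 293T cells, a human embryonic kidney line transformed with the SV40 large T antigen. The list held the 8 subunits TCP1, CCT2, CCT3, CCT4, CCT5, CCT6A, CCT7 and CCT8, and a subunit was measured through the probe sets that the platform annotation assigns to its symbol and to no other. This gave 12 probe sets for 7 of the 8 subunits, out of 19775 genes with such probe sets on the array. TCP1 had none, because each of its 3 probe sets also carries the symbol SNORA29, a small nucleolar RNA. A probe set, and a gene through its brightest probe set, counted as detected if its average over both arrays exceeded 0.92, close to the median over all probe sets. All 7 subunits passed, among 13144 detected genes.

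There were 2 arrays and no replicates. The miR-941 array held RNA precipitated with anti-Ago2 (Ago2 is the Argonaute protein that carries microRNAs) from 293T cells transfected with synthetic miR-941. The control array came from 293T cells transfected with a scrambled oligo, each oligonucleotide at 30 nmol/l. The title of the control calls it an Ago2 precipitate while nonimmune IgG beads stand in its antibody entry, so oligonucleotide and antibody cannot be told apart if that entry holds. No input RNA was analysed here, so recovery in the precipitate and mRNA level in the cells cannot be told apart. With 1 array per group each difference compares these 2 arrays only, and no test was possible.

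CCT, also called TRiC, is a double ring in the cytosol whose rings are each built from the same set of related but distinct subunits. It encloses unfolded proteins and uses ATP to close a lid formed by the subunits themselves, and it is required to fold actin and tubulin. Because each ring takes every subunit, the complex is a natural case in which to ask how even the levels of its mRNAs are. The added microRNA is shown here because it is the treatment, with capitals marking its seed (bases 2 to 8), the part that pairs with target mRNAs. The sequence is that of RefSeq (GRCh38.p14), where 5 gene copies on chromosome 20 give the same mature form.
hsa-miR-941: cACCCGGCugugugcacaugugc
Sequences of the CCT mRNAs were not used here, so seed matches in them were not counted.

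The brightest probe sets of all 7 measured subunits read between 8.52 and 10.47 on the log2 scale. Each was brighter than at least 96.6% of detected genes. CCT8, the theta subunit, read 10.23 (control) and 10.47 (miR-941), the highest level of the set on both. CCT3 (gamma) read 9.75 and 10.06, and CCT5 (epsilon) read 9.77 and 9.96. These and the following values are in the order control, then miR-941. CCT4 (delta) read 9.71 and 9.94. CCT2 (beta) read 9.72 and 9.86. CCT3, CCT5, CCT4 and CCT2 thus formed a tight group. CCT6A (zeta) read 8.68 on both arrays, and CCT7 (eta) read 8.52 and 8.69. These last subunits lay below the tight group on both arrays.

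**Figure D1:**
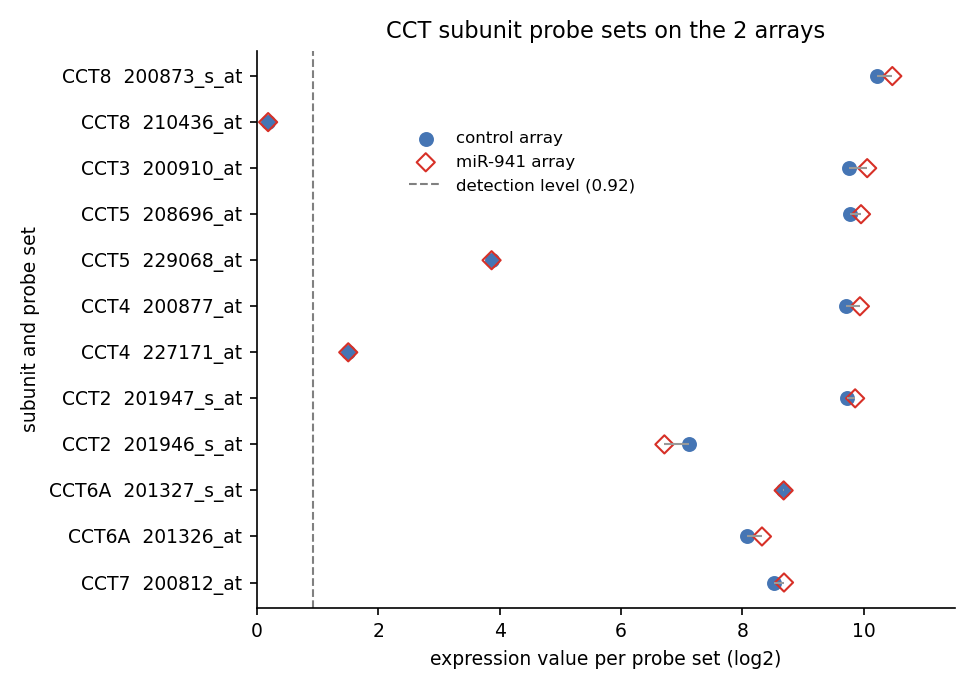
Expression value (log2, x axis) of each of the 12 probe sets of the 7 measured CCT subunits (y axis), with filled circles for the control array, open diamonds for the miR-941 array and a dashed line at the detection level of 0.92. The brightest probe set of each subunit lies between 8.52 and 10.47, and the dimmest, for CCT8, reads 0.19 on both arrays.

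Within the tight group the order was not settled. Mean levels of neighbours in that group differed by 0.04 in each case, less than the 0.14 to 0.31 by which any of these genes differed between the arrays, and CCT3 and CCT5 changed places, as did CCT4 and CCT2. CCT6A and CCT7 lay 0.07 apart in mean level and also changed places. The steps from CCT8 down to CCT3 (0.45) and from CCT2 down to CCT6A (1.11) were larger than any difference between the arrays. Brightness depends on how well each probe binds as well as on mRNA amount, so this is an order of probe set readings and not of mRNA amounts.

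The scatter of levels over subunits had an SD of 0.63 (control) and 0.70 (miR-941; n = 7 subunits), with a range of 1.70 and 1.79. The same quantity is given for 3 other complexes of several different subunits. For the MCM2-7 ring, the replicative helicase, the SD was 0.94 and 1.00 (6 genes). For the 20S proteasome ring, the proteolytic core, it was 1.10 and 1.11 (13 genes). For canonical prefoldin, a co-chaperone of CCT, it was 1.31 and 1.24 (5 genes). The order of the complexes turned with the choice of probe set. Over the mean of both arrays the CCT value was 0.66 with the brightest probe set, the lowest of the 4, and 1.63 with the mean over detected probe sets. Under that second rule, added for the other complexes after seeing the data, MCM2-7 had 1.13, the proteasome 1.27 and prefoldin 2.13. Whether CCT levels are more even than those of the other complexes therefore cannot be read from these probe sets.

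**Figure D2:**
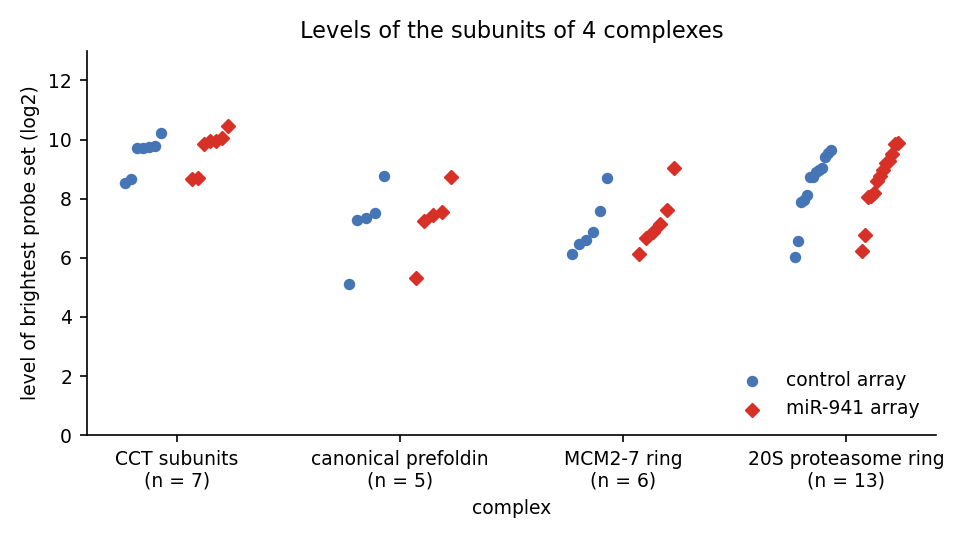
Level of the brightest probe set (log2, y axis) of each detected gene of 4 complexes, drawn in rising order for the control array (blue circles) and the miR-941 array (red diamonds). The CCT subunits span 1.70 (control) and 1.79 (miR-941), and the 20S proteasome genes 3.63 and 3.66.

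All 7 subunits read higher on the miR-941 array on their brightest probe set, by small amounts, although CCT6A fell just below 0 after loess, median or quantile scaling. Of all 13144 detected genes 46.3% were higher and 42.4% lower. CCT3 had the largest log2 difference, 0.31 (1.24-fold). CCT8 had 0.24, CCT4 0.23 and CCT5 0.19. CCT7 had 0.16 and CCT2 0.14, while CCT6A had 0.0037, which is no measurable difference. The median over the 7 was 0.19 (1.14-fold), with an SD over subunits of 0.0962, beside a median of 0.00 over all detected genes. No subunit reached 2-fold, a size reached by 0.221% of detected genes on the higher side and 0.289% on the lower side.

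Genes as bright as these also leaned to the higher side. Of the 344 detected genes with a mean level in the range of the subunits (8.60 to 10.35), 62.2% were higher and 36% lower, with a median difference of 0.06 and an SD of 0.21. A difference at least as large as the subunits' median was found in 24.1% of them, and in 27.3% of all detected genes. Single subunits lay inside the spread of genes of their level: 8.14% of genes in the range had a larger difference than CCT3, 14.2% than CCT8 and 61.3% than CCT6A. The members and this level range were chosen with the values known, so the agreement of direction is a description only.

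**Figure D3:**
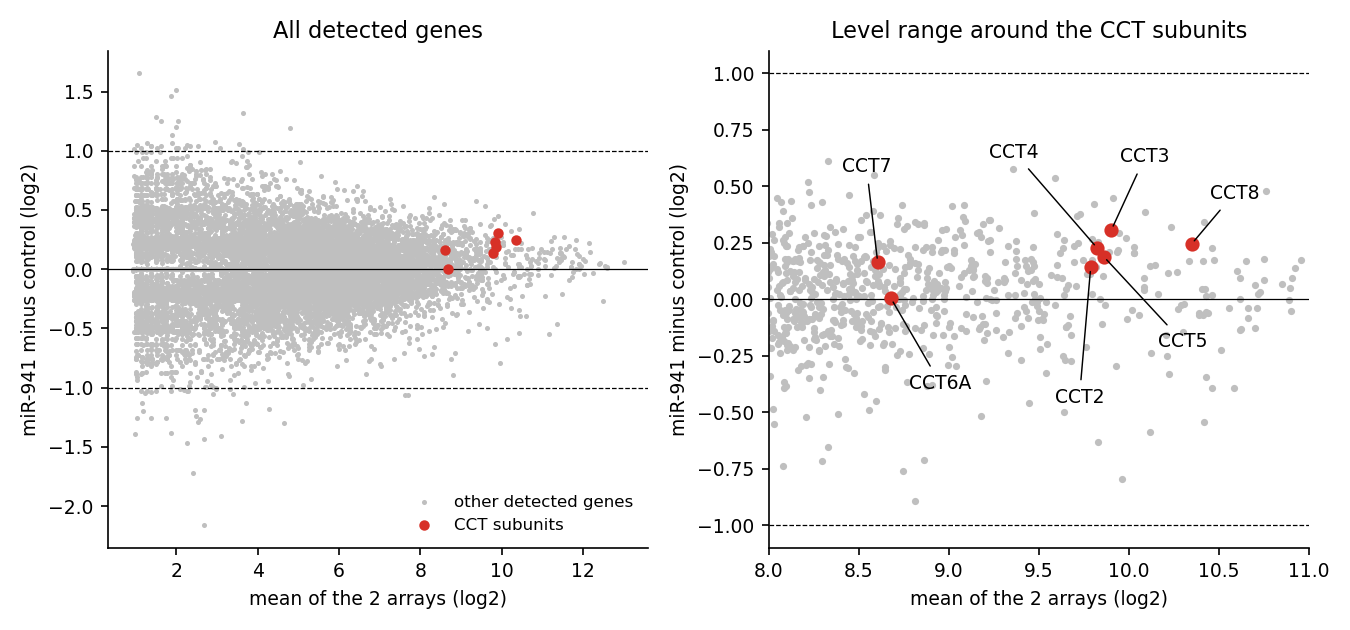
Difference between the arrays (miR-941 minus control, log2, y axis) against the mean of both arrays (log2, x axis) for all detected genes (left) and for the levels around the CCT subunits (right), with dashed lines at 2-fold. The CCT subunits (red) lie between 0.0037 and 0.31, inside the cloud of genes of like level (grey).

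The measure of technical scatter used here is how far probe sets of 1 gene differ from each other. It leaves out any shift shared by a whole array. Taking the 2 brightest detected probe sets per gene, the log2 difference varied within genes with an SD of 0.29 over 6102 genes, and only CCT3 had a difference larger than that. This SD pools all levels and bright probe sets scatter less: for the 150 genes with both probe sets above 8 it was 0.13. Without centring of the arrays, 6 of the 7 subunits, all but CCT6A, had a larger difference than 0.13. Among detected genes in the level range of the subunits, 32.8% had a larger difference than CCT2, the lowest of these 6. Among all detected genes, 13.4% had a larger difference than CCT3. With each array centred on its median, CCT3 (0.25), CCT8 (0.18) and CCT4 (0.17) were above 0.13 but below 0.29. CCT5 (0.129), CCT7 (0.10) and CCT2 (0.0811) were then not above 0.13. Probe sets of 1 gene also differ in the transcript forms they read and share 1 hybridisation per array, so they are not replicates. Where both of the 2 differed between the arrays (4869 genes), they pointed the same way in 57.8%.

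The second probe sets of the subunits mostly gave no matching difference. There were 5 subunits with 2 probe sets, and over all 12 probe sets 8 were higher, 1 lower and 3 equal. For CCT2, the probe set 201946_s_at read 7.13 (control) and 6.72 (miR-941), a difference of -0.41 where the brighter one had 0.14. Their mean was -0.14, so the direction for CCT2 rests on the choice of probe set. For CCT6A the dimmer probe set 201326_at read 8.08 and 8.32, a difference of 0.24 beside 0.0037 on the brighter one. Both CCT6A probe sets are bright and lie 0.48 apart in mean level.

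There were 3 dim probe sets that read identically on both arrays. That of CCT5, 229068_at, read 3.87, or 5.99 below the brighter CCT5 probe set. That of CCT4, 227171_at, read 1.51, just inside the detection level and 8.32 below its partner. That of CCT8, 210436_at, read 0.19, outside the detection level, so no distance to its partner is given. Equal values were common among dim probe sets: 13.5% of the 6651 with a mean level from 2 to 4 had them and 30.3% of those at or below 0.92, but only 1.17% of the 1194 above 8. An equal reading on a dim probe set therefore says little about the mRNA, and what gave rise to it was not tested. CCT3 and CCT7 had 1 probe set each and no such check.

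The 3 probe sets with the joint SNORA29 and TCP1 entry are given as readings of that entry and not of either gene. The brightest, 208778_s_at, read 10.41 (control) and 10.22 (miR-941), a log2 difference of -0.20. Its level is that of the brightest CCT subunits, and its direction is the opposite of theirs. The others, 222010_at and 222011_s_at, read 6.72 and 6.36 (control) and 6.74 and 6.49 (miR-941), with differences of 0.0204 and 0.13. Counting the entry as an eighth subunit, a choice made after seeing the data, left 7 of 8 higher with a median of 0.18.

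The starts of the subunit genes were searched for short promoter motifs, since the CCT genes are expressed together in most cells. RefSeq windows (GRCh38.p14) of 250 bases before to 50 after a start were held for 7 of the 8 subunits, CCT6A not among them, in 9 windows. The CCAAT box, searched on both strands like each motif here, occurred for CCT2, CCT3, CCT8 and TCP1. It was in 4 of the 9 windows, against 34.6% of all 35116 windows of this length. The GC box GGGCGG occurred for CCT2, CCT3, CCT7, CCT8 and TCP1 (6 of 9 windows, and 45% of all windows). The ETS core TTCCGG occurred for CCT2 and CCT5 (2 of 9, and 17.2%). GAANNTTC, a pair of heat shock factor core elements, occurred for CCT2 and TCP1 (2 of 9, and 6.77%). Each motif was counted by itself, also where matches overlapped, and CCT2 and CCT4 had 2 windows each. Those of CCT4 overlap for most of their length, so the 9 windows are not all separate sequences. The GC content was 57.7% to 70% in the subunit windows, beside a median of 58.7% over all windows. Its part in the motif counts was not tested. The windows of CCT3 (chr1:156338243-156338542, minus strand), CCT8 (chr21:29073599-29073898, minus strand) and CCT2 (chr12:69585209-69585508, plus strand) are shown because these measured subunits hold the CCAAT box, in capitals, which reads ATTGG where it lies on the opposite strand.
CCT3: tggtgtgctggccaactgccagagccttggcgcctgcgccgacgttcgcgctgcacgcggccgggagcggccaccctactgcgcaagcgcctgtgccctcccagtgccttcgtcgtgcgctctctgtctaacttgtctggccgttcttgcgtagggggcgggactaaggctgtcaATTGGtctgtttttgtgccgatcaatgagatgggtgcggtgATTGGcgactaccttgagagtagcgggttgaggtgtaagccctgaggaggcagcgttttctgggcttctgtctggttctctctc
CCT8: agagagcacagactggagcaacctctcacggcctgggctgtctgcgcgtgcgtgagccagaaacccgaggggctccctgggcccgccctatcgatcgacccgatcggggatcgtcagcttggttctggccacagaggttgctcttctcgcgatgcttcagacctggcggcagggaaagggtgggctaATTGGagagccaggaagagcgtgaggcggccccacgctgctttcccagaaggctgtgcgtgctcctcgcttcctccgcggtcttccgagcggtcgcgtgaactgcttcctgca
CCT2: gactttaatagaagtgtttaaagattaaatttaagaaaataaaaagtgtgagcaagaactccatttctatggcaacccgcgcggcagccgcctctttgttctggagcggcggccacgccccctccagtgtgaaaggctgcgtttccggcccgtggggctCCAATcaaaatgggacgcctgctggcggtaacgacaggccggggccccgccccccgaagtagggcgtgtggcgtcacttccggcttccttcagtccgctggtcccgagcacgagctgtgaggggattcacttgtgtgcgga
The CCT3 window holds the box at 2 places and the others at 1. Their brightest probe sets differed by 0.31 for CCT3, 0.24 for CCT8 and 0.14 for CCT2. The measured subunits whose windows hold no CCAAT box, CCT4, CCT5 and CCT7, had 0.23, 0.19 and 0.16, inside that range. The differences of the 2 sets of subunits therefore overlapped.

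Prefoldin, which delivers new actin and tubulin chains to CCT, was mixed in direction. Of 8 detected genes of the prefoldin and prefoldin-like list, 4 were higher and 4 lower (against 46.3% and 42.4% of all detected genes), with a median difference of 0.0112 that turned to -0.0486 with each array centred on its median. UXT, a prefoldin-like protein, had 0.22 and read 7.10 and 7.32. URI1, the scaffold of the prefoldin-like complex, had the lowest value, -0.29, and read 8.35 and 8.06. Of its 3 detected probe sets 2 were lower. The core subunits PFDN1 and PFDN2 had 0.18 and 0.11, PFDN4 and VBP1 had 0.03 and -0.0034, and PFDN5 had -0.06. PFDN4 was lower on 2 of its 3 detected probe sets, and PFDN5 was higher on 1 of 2, so their directions rest on the choice of probe set. The prefoldin differences crossed 0. The CCT differences on the brightest probe sets did not, but CCT6A, at 0.0037, fell below 0 after loess, median or quantile scaling. The lists also differ in level, with a median of 7.33 for prefoldin and 9.82 for CCT. The difference between the lists was not tested.

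Among phosducin-like and related co-chaperones, which bind CCT and help it with particular proteins, 3 genes were detected, of which 2 were higher and 1 lower (against 46.3% and 42.4% of all detected genes). Their median was 0.17, but 0.05 without _x_at and _s_at probe sets (2 genes) and 0.08 with no level filter (4 genes). PDCL, which takes part in the assembly of G protein beta subunits, had 0.20 with both probe sets higher, and TXNDC9 had 0.17. PDCD5 had -0.10 on its brightest probe set, with its other probe set higher. PDCL2, a gene of the male germ line, was not detected and read 0.0916 on both arrays.

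Proteins folded by CCT were represented by 19 detected genes, with 11 higher and 6 lower (against 46.3% and 42.4% of all detected genes), 2 equal and a median of 0.0445, which turned to -0.0152 with each array centred on its median. The beta tubulin TUBB2B had the highest difference, 0.43, and the alpha tubulin TUBA1A had 0.37. Each rested on 1 probe set, and tubulin genes share much sequence, so a probe set may read several of them. Tubulin genes with brighter probe sets differed less, with TUBA1B at -0.0228, TUBA1C at -0.08 and TUBB at 0.0146. ACTB, the cytoplasmic actin, read 10.24 (control) and 10.00 (miR-941), a difference of -0.24, and its 3 probe sets were all lower. The array's own control probe sets for ACTB had -0.66 at the 5' end, -0.37 in the middle and -0.04 at the 3' end, and those for GAPDH had -0.19, -0.07 and 0.05. The value thus moved with the position read along both mRNAs, and the part of this in the CCT differences was not tested. ACTG1 had no probe set with its symbol alone.

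CDC20 and FZR1, activators of the anaphase-promoting complex that CCT folds, had 0.23 and 0.21. FZR1 was lower on 1 of its 4 probe sets. GNB1 and GNB2, G protein beta subunits, went opposite ways at 0.23 and -0.33, the latter the lowest of the list. GNB1 was lower on 1 of its 3 probe sets, and GNB2 rested on 1 _x_at probe set. WRAP53, a telomerase cofactor, had 0.06, and the tumour suppressor VHL had 0.18. PLK1, a mitotic kinase, held the same value on both arrays. No client reached 2-fold.

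Other chaperonins leaned the way of the CCT subunits: all 6 detected genes were higher (against 46.3% of all detected genes), with a median of 0.17. Dim genes carried that median, and for the 3 genes above the 75th percentile of level it was 0.06. HSPD1, the mitochondrial chaperonin, read 10.67 and 10.73, a difference of 0.06, with 1 of its 3 detected probe sets lower. Its lid partner HSPE1 had 0.13. CCT6B, a relative of CCT6A expressed mainly in testis, read 1.67 and 1.88, near the detection level. The chaperonin-like BBS12, which works with CCT in building the BBSome, had the largest difference, 0.59, but read only 2.60 and 3.19. BBS10 and MKKS, with the same task, had 0.23 and 0.06, and 1 of the 2 MKKS probe sets was lower. BBS10 read 1.64 and 1.86, also near the detection level. The MKKS difference, 0.0567, was smaller than the shift of the all-gene median to -0.0598 with each array centred on its median. CCT8L2 was not detected.

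**Figure D4:**
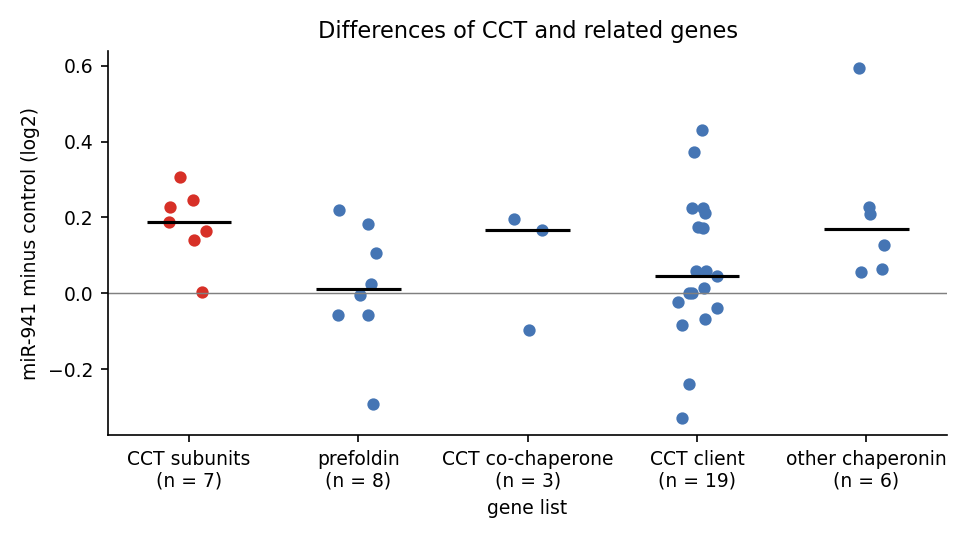
Difference between the arrays (miR-941 minus control, log2, y axis) for each detected gene of the CCT subunit list (red) and of 4 related lists (blue), with a bar at each list's median and a spread along the x axis that only separates points. The CCT median is 0.19, beside 0.0112 for prefoldin, 0.17 for co-chaperones, 0.0445 for clients and 0.17 for other chaperonins.

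The median differences of the other ring complexes, on brightest probe sets, were of like size to the CCT median. The MCM2-7 genes had a median of 0.17 with 6 of 6 higher. The 20S proteasome genes had 0.17 with 12 of 13 higher and PSMA1 lower, where 46.3% of all detected genes were higher. Their median level was 8.75, and 62.2% of detected genes in the level range of the CCT subunits were higher. The MCM values were split, with MCM5, MCM7 and MCM4 near 0 (0.0068, 0.0149 and 0.0416) and MCM3, MCM6 and MCM2 at 0.29, 0.33 and 0.43. MCM4 was lower on 3 of its 5 probe sets, and MCM7 on 1 of 2. PSMA7 counted as higher at 0.0017, with 1 of its 2 probe sets lower. PSMB2, at 0.05, had 1 detected probe set higher, 1 lower and 1 equal, and PSMB4 had 1 of 3 lower. With each array centred on its median, the median of all detected genes moved from 0.00 to -0.0598. That shift is larger than the differences of MCM5, MCM7, MCM4, PSMA7 and PSMB2. The counts of these complexes were not repeated with centred arrays. Outside the lists, the genes whose pair of values lay nearest the median pair of the subunits (9.72 and 9.94) were VDAC3, NHP2, CLTC, SNRPG and HEY1, at Euclidean distances from 0.0229 to 0.0573 over the 2 arrays.

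As a weak check of the cell label, all 8 genes of the list for the parent line of 293T (neural, kidney and filament genes) were detected. PAX2 lay nearest the detection level (0.86 and 1.23). Of all 19775 genes with a probe set of their own symbol alone, 13144 were detected, so detection by itself says little about the label. Of 9 measured markers of other cell types 3 were detected, which were HBB, COL1A1 and PECAM1. HBB, the beta globin gene, read 6.95 (control) and 7.54 (miR-941), a difference of 0.59 with 3 of its 4 probe sets higher, and its part in any CCT difference was not tested. COL1A1 read 2.72 and 2.48, and PECAM1 0.93 and 1.37. PTPRC, CD3E, CD14, ALB, INS and EPCAM were not. The medians of the arrays were 0.92 and 0.98, and the control and miR-941 values of the 54675 probe sets had a Pearson's r of 0.992, across probe sets that share 2 hybridisations and are no replicates.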

How the data were processed

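Expression was measured on 2 Affymetrix arrays, 1 per group, grouped by the transfected oligonucleotide. The authors used RMA in R, per the labels' protocols and the design text, to make the deposited value of each probe set. These were taken as log2 because they reach 13.7. The submitters' processing notes also name affy and MAS5, without versions or roles. Any centring is not given in the sources used here.

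By the platform annotation, 41091 probe sets had 1 symbol, 1801 several and 11721 none, and 62 were controls. Of the 41091, 41037 were matched by Entrez identifier to RefSeq symbols (GRCh38.p14). A gene took the value of its brightest probe set. Differences are miR-941 minus control. The number of arrays limits the precision, and no p-value was computed. On simulated differences over 13144 genes, a log2 shift of 1 brought 62% of 100 genes to at least 2-fold and a shift of 2 brought 100%. The shift of 1 equals the cut-off, so its share only counts genes whose difference was 0 or more before the shift. A shift of 2 passes any gene that was not more than 2-fold lower. Neither share measures sensitivity. Alternatives were other probe set rules, level filters and scalings (lowess span 0.4, statsmodels 0.14.6). Named genes are all subunits with every probe set, the highest and lowest member of each related list with ACTB, ACTG1, HSPD1, HSPE1 and CCT6B, and the 5 genes nearest the subunits' median pair. Other members of the lists are named as examples chosen after their values were seen. The subunits, lists and tests were chosen with earlier results of these data known.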

Additional observations from a re-analysis of the deposited data

How the results depend on the processing

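The median difference of the CCT subunits stayed positive under each alternative run, from 0.12 to 0.23, and 6 or 7 of 7 subunits were higher (5 of 5 without _x_at and _s_at probe sets, which leave CCT2 and CCT8 without a detected value). CCT6A was the lower subunit under loess, median and quantile scaling, and CCT2 under the mean or median over probe sets. The SD of subunit levels was 1.63 with the mean over detected probe sets and 1.70 with the median over all, since dim probe sets then count. With each array centred on its median the prefoldin and client medians turned to -0.0486 and -0.0152. Genes at least 2-fold higher and lower, 29 and 38 in the main setting, were 384 and 377 at 1.5-fold, 13 and 12 with the median over probe sets, and 4 and 7 above the 75th percentile of level. Lower genes were 18 with the mean over detected probe sets and 20 with the median over those that differ, and higher genes were 13 with each array centred. The alternatives with the joint TCP1 entry and with only probe sets that differ were chosen after seeing the data. No paired analysis was possible because only 1 array stands for either group, so no array could be omitted either. No level can be read for dim probe sets near 0.92.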
